A study of Arabidopsis thaliana with 30 samples.

Results

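The genes described here were the calreticulins, the calnexins and the chaperones that fold secretory proteins in the endoplasmic reticulum (ER) of Arabidopsis thaliana. They were 10 loci out of the 27588 quantified: the calreticulins CRT1A, CRT1B and CRT3, the calnexins CNX1 and CNX2, the HSP70-type binding proteins BIP1, BIP2 and BIP3, and the BiP partners SDF2 and ERDJ3B. The family was selected on the CRT3 level, which had been seen to mark the double overexpression line in both treatments. On RefSeq TAIR10.1, CRT3 (AT1G08450) lies at chr1:2667798-2671957, BIP3 (AT1G09080) at chr1:2929217-2931850, CRT1B (AT1G09210) at chr1:2972638-2977002 and CRT1A (AT1G56340) at chr1:21089565-21092709, all on the minus strand. CNX1 (AT5G61790) lies at chr5:24827063-24829900, BIP1 (AT5G28540) at chr5:10540123-10543558, BIP2 (AT5G42020) at chr5:16807342-16810693 and ERDJ3B (AT3G62600) at chr3:23150779-23153649, also on the minus strand. CNX2 (AT5G07340) at chr5:2317126-2319843 and SDF2 (AT2G25110) at chr2:10684118-10686347 lie on the plus strand. Because of that choice, every level that sets the double line against another genotype is given below as a description, and where the calling criterion is named for it nothing is read from the call.

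Rosettes of 5 genotypes were compared, each supplied with bicarbonate or with water, with 3 libraries for each of the 10 groups. The double line (oePsbS_CA1 in the labels, oePsbSoeβCA1 here) carried a βCA1 construct driven by the 35S promoter in a background that already overexpressed PsbS. The triple line (oePsbS_CA1_CA2, oePsbSoeβCA1βCA2) carried βCA1 and βCA2 driven by the ROLD and 35S promoters in that same background. The background line itself was oePsbS, the mutant npq4-1 lacks PsbS, and Col-0 is the wild type. PsbS is a thylakoid protein needed for rapid thermal dissipation of excess light, and βCA1 and βCA2 are carbonic anhydrases, which interconvert CO2 and bicarbonate. From an age of 2 weeks the plants received 10 ml of 3 mM NaHCO3 or the same volume of water every 2 days, and the methods give an age of 4 weeks for the plants sequenced. The bicarbonate solution was also buffered with KOH, whereas the control plants received water. Sodium, potassium and any difference in pH came with the bicarbonate, so their effects cannot be told apart. The submitters call the 3 libraries of a group independent biological replicates. For each construct 3 independent transgenic lines had been kept, and no source used here says which of them, or how many plants, went into a library.

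The libraries held between 15346368 and 18326430 estimated reads. Levels within a gene are given as CPM, the usual counts scaled to a common library total after TMM normalization, and levels between genes as TPM, which also divides by transcript length. The summed levels of the targeted genes did not follow the labels everywhere. βCA1 (CA1) stood at 10940 to 16800 CPM in 5 of the 6 libraries of the double line, but at 2409 CPM in its bicarbonate replicate 3, and at 3342 to 4071 CPM in the 6 libraries of the triple line, against 2345 to 4288 CPM in Col-0, npq4-1 and oePsbS. βCA2 (CA2) stood at 1604 to 1919 CPM in the triple line, against 967 to 1955 CPM in the other genotypes. The βCA2 transcript AT5G14740.1 held 7974 to 10247 reads, 26.1 to 36.0% of the gene, in the 6 libraries of the triple line, and was estimated at 0 in the other 24. PsbS was at most 6.28 CPM in npq4-1. The 4 leaf mesophyll markers summed to between 52980 and 66060 CPM in every library, the 7 floral markers to at most 21.7 CPM and the 6 root markers to at most 1.13 CPM. In whole rosettes, fewer cells of a type and less RNA per cell cannot be told apart.

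Proteins that enter the ER fold with the help of 2 systems. BiP, an HSP70, binds exposed hydrophobic stretches with the help of J-domain partners such as ERdj3B, and in plants SDF2 works with ERdj3B and BiP. Calnexin, which is anchored in the membrane, and calreticulin, which is soluble, are lectins that hold glycoproteins carrying a monoglucosylated glycan until they are folded. CRT3 is a calreticulin of plants known for its role in the production of the immune receptor EFR and in the retention of a defective brassinosteroid receptor, and SDF2 and ERdj3B are also needed for EFR. When unfolded proteins accumulate, the transcription factors bZIP28 and bZIP60 switch on many chaperone genes through promoter sequences named ERSE and UPRE, and BIP3 is the BiP gene best known for being silent until that response is on.

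The windows that surround the annotated transcript starts are shown for 5 of the genes, because the family divides by the letters in them and the window of CRT3 holds none of them. Each window holds 250 bases before and 50 bases after the start, read 5′ to 3′ on the strand of the gene from the RefSeq assembly TAIR10.1. The deposited files follow TAIR10 and hold no coordinates, but all 17 transcripts of the 10 genes had the same spliced length in both. The windows lie at chr1:2671908-2672207 for CRT3, chr1:21092660-21092959 for CRT1A, chr5:24829851-24830150 for CNX1, chr5:16810644-16810943 for BIP2 and chr1:2931801-2932100 for BIP3, all 5 on the minus strand. Capitals mark matches to the ERSE, UPRE and G-box letters given after them.
CRT3: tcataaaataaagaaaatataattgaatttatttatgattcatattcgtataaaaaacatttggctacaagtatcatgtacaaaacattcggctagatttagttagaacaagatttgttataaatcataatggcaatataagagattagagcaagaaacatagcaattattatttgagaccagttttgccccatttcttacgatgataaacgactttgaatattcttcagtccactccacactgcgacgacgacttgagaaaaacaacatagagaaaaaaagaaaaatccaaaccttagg
CRT1A: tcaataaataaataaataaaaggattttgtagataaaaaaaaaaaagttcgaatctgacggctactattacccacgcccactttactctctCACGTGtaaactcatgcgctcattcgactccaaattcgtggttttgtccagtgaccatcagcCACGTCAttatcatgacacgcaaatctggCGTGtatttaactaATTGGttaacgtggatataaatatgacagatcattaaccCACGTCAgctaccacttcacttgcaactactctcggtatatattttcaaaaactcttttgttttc
CNX1: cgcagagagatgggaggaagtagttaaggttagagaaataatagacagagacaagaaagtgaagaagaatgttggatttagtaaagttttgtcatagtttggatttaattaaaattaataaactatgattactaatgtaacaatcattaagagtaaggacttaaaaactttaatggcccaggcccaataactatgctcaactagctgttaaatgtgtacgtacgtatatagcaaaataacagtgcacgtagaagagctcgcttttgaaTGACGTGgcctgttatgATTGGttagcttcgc
BIP2: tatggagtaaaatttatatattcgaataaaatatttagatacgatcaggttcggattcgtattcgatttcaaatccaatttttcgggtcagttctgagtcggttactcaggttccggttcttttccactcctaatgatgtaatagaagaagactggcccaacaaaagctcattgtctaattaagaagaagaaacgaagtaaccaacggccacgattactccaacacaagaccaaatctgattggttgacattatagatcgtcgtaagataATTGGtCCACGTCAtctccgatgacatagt
BIP3: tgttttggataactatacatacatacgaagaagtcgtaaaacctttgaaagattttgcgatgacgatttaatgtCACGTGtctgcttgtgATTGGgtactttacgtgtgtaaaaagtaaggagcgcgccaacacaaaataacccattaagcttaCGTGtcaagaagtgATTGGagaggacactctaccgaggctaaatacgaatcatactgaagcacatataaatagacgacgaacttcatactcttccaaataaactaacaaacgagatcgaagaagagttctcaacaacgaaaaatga

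Searched on both strands, ERSE-I (CCAATNNNNNNNNNNCACG) occurred in the windows of CRT1A, CNX1 and BIP3, with 2 copies in BIP3, while 0.849% of 27443 such windows in the genome held it. ERSE-II (ATTGG and, after any 1 base, CCACG) occurred in BIP2 and in 0.069% of all windows. The UPRE core (TGACGTG) occurred in CRT1A with 2 copies, in CNX1 and in BIP2, and in 3.41% of all windows. In CNX1 the UPRE core overlaps ERSE-I, and in BIP2 it overlaps ERSE-II. The G-box (CACGTG) was found in CRT1A, BIP3, SDF2 and ERDJ3B and in 7.68% of all windows, and the one in BIP3 overlaps an ERSE-I. The W-box core (TTGAC), not capitalized, occurred in CNX2, BIP2, BIP3 and SDF2 and in 50.5% of all windows. The windows of CRT3, CRT1B and BIP1 held none of the 5 sequences. A match is a description of letters, and its absence says only that these letters are not in this window.

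CRT3 was the member that set the double line apart. With bicarbonate its level was 563, 682 and 682 CPM in the double line, against 124, 119 and 72.9 CPM in Col-0. With water it was 619.7, 509 and 502 CPM in the double line, against 110.4, 88.6 and 88.1 CPM in Col-0. All 6 libraries of the double line lay above all 6 of Col-0, with no overlap in either treatment.

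The other genotypes lay far below the double line, and npq4-1 was the highest of them. The triple line, which carries the same background, had 116, 160.2 and 74.5 CPM with bicarbonate and 104, 85.2 and 92.1 CPM with water. In oePsbS the values were 82.0, 81.0 and 95.8 CPM with bicarbonate and 134, 116 and 122 CPM with water. In npq4-1 they were 196.5, 122 and 105 CPM with bicarbonate and 169, 151 and 150.5 CPM with water. The highest of these 24 libraries, at 196.5 CPM, was therefore well under the lowest of the double line, at 502 CPM.

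**Figure D1:**
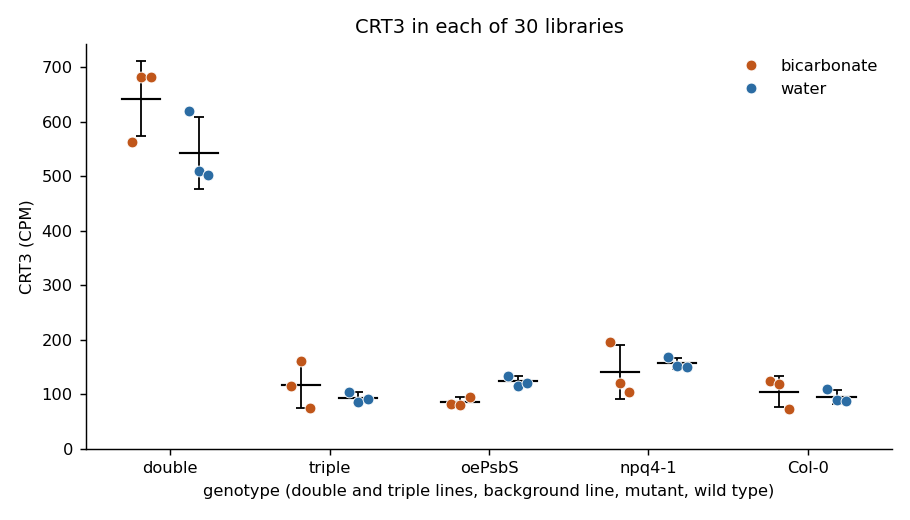
CRT3 level (CPM, vertical axis from 0) in each of the 30 libraries by genotype, bicarbonate left of water; points are libraries, and the bars give the mean and SD of 3. The 6 libraries of the double line sit between 502 and 682 CPM, and the other 24 between 72.9 and 196.5 CPM.

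As a fold change, CRT3 was 6.10-fold higher in the double line than in Col-0 with bicarbonate (log2 fold change 2.61, SE 0.22) and 5.68-fold higher with water (log2 2.51, SE 0.22). Against oePsbS, the background line into which the βCA1 construct was brought, the fold was 7.44 with bicarbonate (log2 2.90, SE 0.22) and 4.39 with water (log2 2.13, SE 0.22). Against npq4-1 it was 4.55 with bicarbonate (log2 2.19, SE 0.22) and 3.47 with water (log2 1.79, SE 0.21). The triple line stood below the double line by a log2 fold change of −2.46 with bicarbonate and −2.53 with water (SE 0.22 each).

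The criterion used throughout for a call is a Benjamini-Hochberg adjusted p under 0.05 in edgeR with a log2 fold change beyond 1 in either direction. CRT3 met it in all 8 contrasts of the double line with another genotype, and was the 1 member to do so except against oePsbS with bicarbonate, where BIP3 met it too. The share of all 18999 genes that met it was 0.974% with bicarbonate and 0.0421% with water against Col-0, 0.579% and 0.0737% against npq4-1, and 3.16% and 0.711% against oePsbS. In the triple line against the double line it was 0.00526% with bicarbonate and 0.0105% with water. The family was selected on these same contrasts, which share the libraries of the double line, so the calls add nothing to the values above.

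The library of the double line with a low βCA1 level did not have a low CRT3 level. In bicarbonate replicate 3 CRT3 stood at 682 CPM beside 2409 CPM of βCA1, while in replicates 1 and 2 it stood at 563 and 682 CPM beside 12950 and 14750 CPM of βCA1. The transcript AT3G01500.2 took at least 78.7% of the βCA1 reads in the 3 water libraries of the double line, 28.5% in the lowest bicarbonate library, 16.3 to 25.4% in the 6 libraries of the triple line, and 6.23 to 14.1% in Col-0, npq4-1 and oePsbS. Without replicate 3 the log2 fold change of CRT3 against Col-0 with bicarbonate was 2.56.

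Across the 10 groups the CRT3 means formed 1 step and a slope. The double line came first with 642 ± 68.8 CPM with bicarbonate and 543 ± 66.2 CPM with water, and these 2 groups overlapped each other. Then came npq4-1 with 157 ± 10.2 CPM with water and 141 ± 48.8 CPM with bicarbonate (SD, n = 3 for each group). The remaining 6 groups lay between 86.3 CPM, in oePsbS with bicarbonate, and 124 CPM, in oePsbS with water. Of the 9 pairs of neighbours in this order, 8 overlapped in their libraries, and the 1 that did not was the step below the double line.

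Almost all CRT3 reads came from 1 transcript. AT1G08450.1 took at least 95.3% of them in every library, and in the double line 97.0 to 99.1%. AT1G08450.2 took at most 4.69%, and AT1G08450.3 at most 0.266%, with an estimate of 0 in 27 of the 30 libraries. The excess in the double line was thus assigned to the transcript that is also the main one elsewhere.

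The genes next to CRT3 did not share its level. Of the 5 genes on each side, 8 were expressed enough to be fitted. Their log2 fold changes in the double line against Col-0 lay between −0.49 and 0.16 over both treatments, and none of the 8 passed the criterion against Col-0 or oePsbS in either treatment. HDA08, a histone deacetylase gene whose start lies 241 bases from that of CRT3 on the other strand, stood at 0.16 (SE 0.12) with bicarbonate and 0.02 (SE 0.12) with water. YAB2, a leaf polarity gene further along, was the lowest, at −0.49 (SE 0.12) with bicarbonate. On the other side ALMT1, a malate transporter gene, and AT1G08440 had at most 0.727 and 0.500 CPM in any library.

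**Figure D2:**
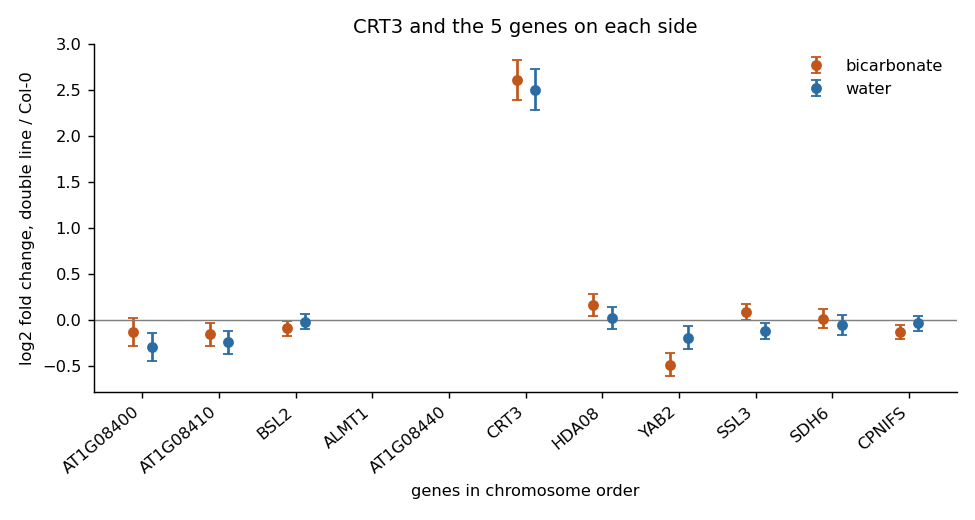
Log2 fold change of the double line over Col-0 (vertical axis, ± SE of the fit) for CRT3 and the 5 annotated genes on each side, in chromosome order and not to scale, with bicarbonate drawn left of water. CRT3 stands at 2.61 and 2.51, and its fitted neighbours between −0.49 and 0.16; ALMT1 and AT1G08440 have no point because they did not pass the filter on low counts.

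The other calreticulins did not accompany CRT3. CRT1A, a ubiquitous calreticulin, lay between 111 and 137 CPM in the 6 libraries of the double line, against 114 and 154 CPM as lowest and highest of the other 24. CRT1B, its close relative, lay between 104 and 130.1 CPM in the double line, against 105 to 150.1 CPM in the others. Their libraries overlapped with those of the other genotypes over most of the range.

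The make-up of calreticulin mRNA in the double line differed from that of every other group. By TPM, CRT3 made up 76.8 ± 2.06% of the 3 calreticulins in the double line with bicarbonate and 75.5 ± 2.35% with water. In the triple line it made up 35.0 ± 6.95% with bicarbonate and 30.8 ± 4.16% with water, in oePsbS 32.2 ± 1.02% and 40.2 ± 2.19%, and in npq4-1 42.6 ± 6.94% and 45.8 ± 0.636%. In Col-0 it made up 35.6 ± 5.85% with bicarbonate and 35.0 ± 2.82% with water (SD, n = 3). The summed calreticulin level was 750.2 ± 59.5 TPM with bicarbonate and 626 ± 46.8 TPM with water in the double line, against 259 ± 44.1 TPM with bicarbonate and 242 ± 13.2 TPM with water in Col-0. The other 9 members together summed to 545 ± 73.0 TPM with bicarbonate and 457 ± 14.8 TPM with water in the double line, against 489 ± 58.7 TPM with bicarbonate and 461 ± 24.6 TPM with water in Col-0. CRT3 alone reached 577 ± 55.6 TPM with bicarbonate and 473 ± 48.5 TPM with water in the double line (SD, n = 3).

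**Figure D3:**
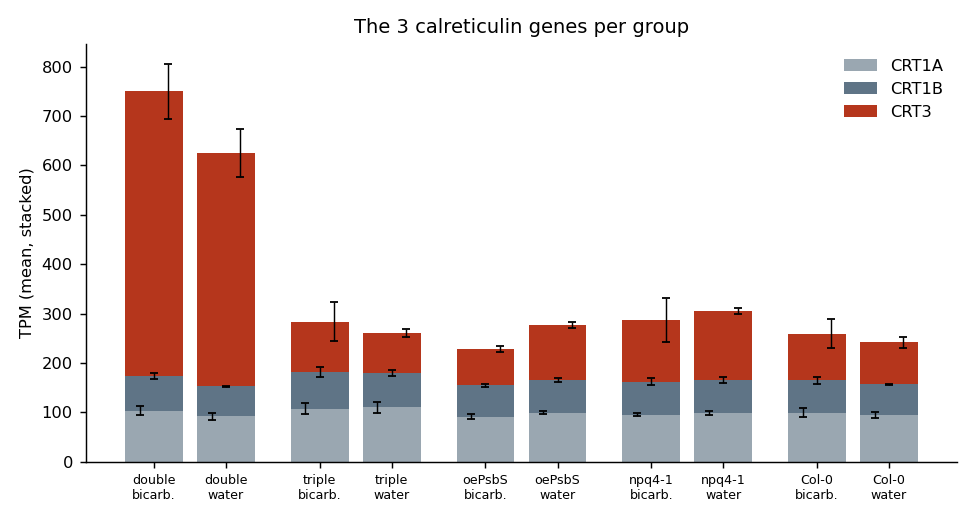
Mean TPM of CRT1A, CRT1B and CRT3 stacked for each group (vertical axis from 0), bicarbonate left of water within a genotype; error bars are the SD of each gene over 3 libraries, drawn at the top of its segment. The CRT3 segment fills most of the bars of the double line and the CRT1A and CRT1B segments below it together stay under 200 TPM in every group.

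With water 8 of the 9 other genes were close to their level in Col-0 in the double line. Their log2 fold changes lay between −0.08 and 0.17 against Col-0 and between −0.10 and 0.07 against oePsbS. The ninth, BIP3, had 2.38, 2.40 and 2.49 CPM in the double line, against 1.73, 1.82 and 1.26 CPM in Col-0 with water, without overlap (log2 0.60, SE 0.58), and it stood at −0.95 against npq4-1. Between the double line and Col-0 with water 3 of the 10 members did not overlap, where 12.75% of all genes did not. With bicarbonate the same 8 genes lay between 0.03 and 0.32 against Col-0, between 0.06 and 0.23 against npq4-1 and between 0.08 and 0.40 against oePsbS. In that last comparison CNX2 stood at 0.40 (SE 0.09), BIP1 at 0.38 (SE 0.11), ERDJ3B at 0.34 (SE 0.11) and BIP3 at 2.1 (SE 0.54). Of the 10 groups, oePsbS with bicarbonate had the lowest mean for 5 of the 10 members: CRT3, CNX2, BIP1, BIP2 and SDF2.

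**Figure D4:**
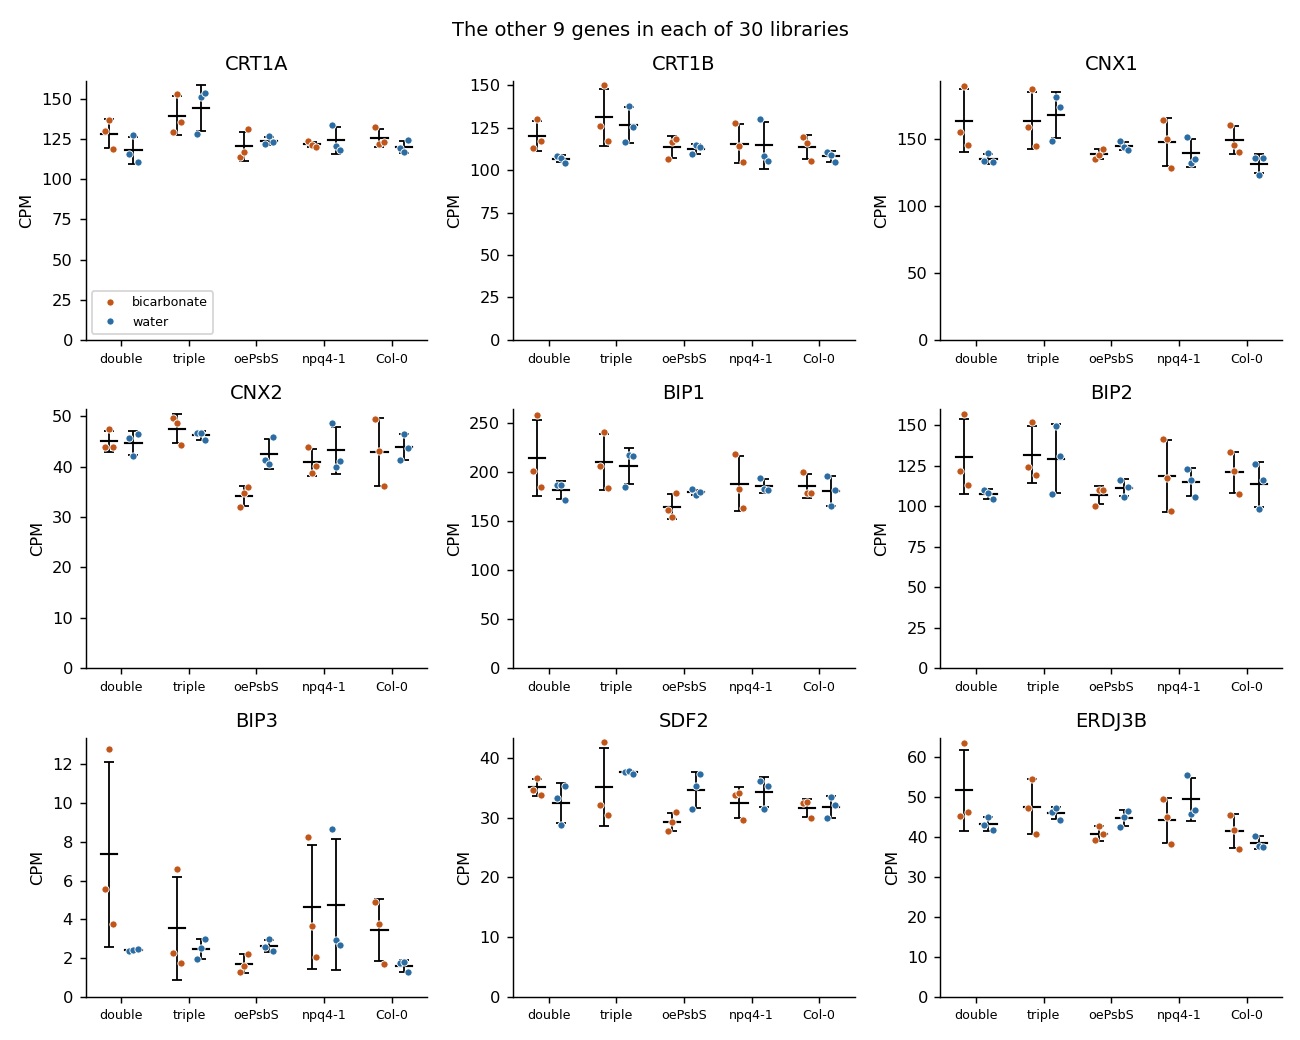
Level of the other 9 genes (CPM, each vertical axis from 0) in each of the 30 libraries by genotype, bicarbonate left of water; points are libraries, bars the mean and SD of 3. Apart from BIP3 each gene ranges over the 30 libraries by a ratio of at most 1.72, and some pairs of groups do not overlap. CNX2 is low in oePsbS with bicarbonate, at 31.9 to 35.9 CPM.

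The contrasts that the choice of genes did not directly use were tested. In 20 such contrasts of 10 genes each, 4 of the 200 values passed an adjusted p under 0.05 in edgeR. An unadjusted p under 0.05 was found for 42, or 21.0% where 15.1% of all genes had one. Some contrasts, the bicarbonate response of the double line and the differences of responses that include it, use the libraries in which CRT3 was picked. The 200 values share genes and libraries, so these shares are a description. DESeq2 called 7 on the adjusted p, and limma on log2 TPM called 3. All 4 of the calls in edgeR involved oePsbS with bicarbonate, and none of the 4 reached a log2 fold change of 1. Of all genes, the share past the adjusted p was 15.4% in the bicarbonate response of oePsbS, 1.93% in that of the double line, 2.01% in that of the triple line, 1.06% in npq4-1 and 0.51% in Col-0. Between genotypes with bicarbonate it was 8.5% in the triple line against oePsbS, 2.09% in the triple line against Col-0, 0.274% in oePsbS against Col-0 and 0.0421% in npq4-1 against Col-0. With water the same 4 shares were 13.7%, 0.0737%, 8.56% and 0.705%.

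In oePsbS, CRT3 was lower with bicarbonate. Its level fell to 82.0, 81.0 and 95.8 CPM with bicarbonate, against 134, 116 and 122 CPM with water, without overlap (log2 fold change −0.51, SE 0.09, edgeR adjusted p = 0.00488). CNX2, the less expressed calnexin, fell to 31.9, 34.7 and 35.9 CPM with bicarbonate, against 41.3, 40.5 and 46.0 CPM with water (log2 fold change −0.31, SE 0.08, edgeR adjusted p = 0.0302). These 2 of 10 genes fell where 7.19% of all genes did. The other 8 did not pass, with log2 fold changes between −0.61 for BIP3 and 0.03 for CRT1B. Of the 10 members, 4 did not overlap between the treatments, where 35.0% of all genes did not. In a fit of all 30 libraries, which shares 1 estimate of the spread, the edgeR adjusted p of CRT3 was 0.0991. The call of CNX2 was lost, at adjusted p values of 0.0637 to 0.134, without any of 4 libraries: water replicate 2, water replicate 3, bicarbonate replicate 1 or bicarbonate replicate 2.

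In this response 2 of the 4 leaf markers rose and 2 of the 7 floral markers, SEP2 and SEP3, fell on the adjusted p in edgeR. Of all genes, 15.4% passed in either direction and 7.19% fell. RBCS1A and RCA, both photosynthesis genes of the mesophyll, rose in oePsbS with bicarbonate by log2 0.36 and 0.34 (edgeR adjusted p = 0.0053 and 0.00329), and the 4 leaf markers summed to 61780 to 63560 CPM with bicarbonate, against 58080 to 59330 CPM with water. The 7 floral markers summed to 7.77 to 10.0 CPM with bicarbonate, against 9.66 to 21.7 CPM with water, and these ranges overlapped. No floral marker exceeded 4.80 CPM in any library. The part of the leaf and floral markers in the fall of CRT3 and CNX2 was not tested.

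In the double line, bicarbonate raised no member past the threshold. CRT3 had 563, 682 and 682 CPM with bicarbonate and 619.7, 509 and 502 CPM with water, and the groups overlapped (log2 fold change 0.24, SE 0.10, edgeR adjusted p = 0.307). BIP3 had 5.54, 12.8 and 3.76 CPM with bicarbonate and 2.38, 2.40 and 2.49 CPM with water (log2 1.61, SE 0.39, edgeR adjusted p = 0.0727). Its groups did not overlap, but replicate 2 carried much of the difference, and without that library the log2 fold change was 0.94. DESeq2, a fit with no filter on low counts, and a fit without bicarbonate replicate 3, the library with the low βCA1 level, each called BIP3, at adjusted p values of 0.000521, 0.0272 and 0.00743.

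In this response 0.775% of all genes passed with the fold, and 5 of the 10 members did not overlap between the treatments, where 19.5% of all genes did not. All 10 log2 fold changes of this response lay above 0, with a median of 0.24 where that of all genes was 0.01. Without bicarbonate replicate 2 their median was 0.10 and 9 of the 10 lay above 0. The 10 genes are measured in the same 6 libraries and are not replicates of the response. In Col-0, npq4-1 and the triple line the medians over the 10 genes were 0.08, −0.02 and 0.04, and none of the 10 passed the adjusted p in edgeR in any of the 3. In unadjusted terms 1 of 10 had a p under 0.05 in Col-0, which was BIP3, 0 in npq4-1 and 0 in the triple line, and neither DESeq2 nor limma called any of the 10 there.

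The responses themselves were also compared between genotypes. Between the double line and oePsbS, the difference of the 2 responses was 2.22 for BIP3 on the log2 scale (SE 0.77, edgeR adjusted p = 0.0702) and 0.76 for CRT3 (SE 0.30, edgeR adjusted p = 0.112). Between the triple line and oePsbS it was 0.84 for CRT3 (SE 0.30, edgeR adjusted p = 0.0645) and 0.36 for CNX2 (SE 0.13, edgeR adjusted p = 0.0644). Of all genes, 2.13% passed with the fold and 8.06% on the adjusted p alone in the first difference, and 3.12% and 13.1% in the second. In the other 5 differences the share on the adjusted p was 0.726% for the triple line minus Col-0, 0.0316% for oePsbS minus Col-0, and 0.0% for the double line minus Col-0, npq4-1 minus Col-0 and the triple minus the double line. No member passed in the 7 differences tested with edgeR, DESeq2 or limma, although 13 of the 70, or 18.6%, had an unadjusted p under 0.05 in edgeR, where 13.3% of all genes did. Fitted with only the libraries of the groups compared, BIP3 and CRT3 passed in the first of these differences, at adjusted p values of 0.0161 and 0.00462, and CNX2 passed in the second, at 0.0415. In the second difference CRT3 also passed without Col-0 bicarbonate replicate 3, npq4-1 bicarbonate replicate 1 or triple-line bicarbonate replicate 3, at 0.0116 to 0.0414. CNX2 passed there without Col-0 bicarbonate replicate 1 or 3 or triple-line bicarbonate replicate 3, at 0.0343 to 0.0431.

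Without the double line, 2 members differed between genotypes in the fit of all 30 libraries. In the triple line with bicarbonate CNX2 had 49.7, 48.7 and 44.3 CPM, against 31.9, 34.7 and 35.9 CPM in oePsbS with bicarbonate, with no overlap (log2 fold change 0.48, SE 0.09, edgeR adjusted p = 0.00131). BIP1 had 207, 241 and 185 CPM in the triple line, against 162, 154 and 179 CPM in oePsbS, again with no overlap (log2 0.35, SE 0.11, edgeR adjusted p = 0.0459). These 2 of 10 were higher where 5.75% of all genes were. Of the 10 members, 4 did not overlap between these groups, where 27.9% of all genes did not. CNX2 kept its call in all 37 alternatives, at adjusted p values of 7.35e-05 to 0.0109. BIP1 kept it in 17 of 37, with an adjusted p of 0.0225 to 0.255, the last without triple-line bicarbonate replicate 2. These 37 leave out the fit with near-identical copies summed. BIP2, whose reads are hard to separate from those of BIP1, was also higher but did not pass (log2 0.30, edgeR adjusted p = 0.157). It passed in 0 of its 37 alternatives.

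BIP1 and BIP2 encode nearly the same protein, and Salmon divided reads between them, since their estimates were not whole numbers in any library. The reads of CRT1A, CRT1B, CNX1, CNX2, BIP3, SDF2 and ERDJ3B were whole numbers in all 30 libraries, to within 0.001, and those of CRT3 in 29. The division between BIP1 and BIP2 is therefore uncertain in a way that the levels of the other members are not. BIP1 took 57.2 to 62.2% of the summed TPM of the 3 BiP genes in every library, and BIP3 at most 3.89%.

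With only the libraries compared, CRT3 also passed in the triple line against oePsbS with water (log2 −0.40, edgeR adjusted p = 0.0218) and in oePsbS against Col-0 with water (log2 0.37, edgeR adjusted p = 0.0475). It passed in the triple line against oePsbS with bicarbonate without triple-line bicarbonate replicate 3 (log2 0.68, edgeR adjusted p = 0.0447). CNX2 passed in oePsbS against Col-0 with bicarbonate in DESeq2 (log2 −0.33, adjusted p = 0.0416) and, in edgeR, without Col-0 bicarbonate replicate 3 (log2 −0.44, adjusted p = 0.0219).

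In the triple line with water most members stood above Col-0, though none passed the adjusted p in edgeR, DESeq2 or limma. CNX1, the more expressed calnexin, had 149, 182 and 174 CPM in the triple line, against 136, 123 and 136 CPM in Col-0 (log2 fold change 0.35, SE 0.10, edgeR adjusted p = 0.258). CRT1A had 128, 151.5 and 154 CPM in the triple line, against 119, 117 and 124 CPM in Col-0 (log2 0.27, SE 0.08, edgeR adjusted p = 0.275). Of the 10 members, 9 lay above 0 with a median of 0.23, 6 did not overlap between the groups where 12.7% of all genes did not, and 5 had an unadjusted p under 0.05 where 8.88% of all genes did.

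In npq4-1, which lacks PsbS, 3 members had an unadjusted p under 0.05 against Col-0 with water, where 16.2% of all genes did, and none passed the adjustment. CRT3 had 169, 151 and 150.5 CPM in npq4-1, against 110.4, 88.6 and 88.1 CPM in Col-0, without overlap (log2 fold change 0.71, SE 0.21, edgeR adjusted p = 0.0958). With only these 6 libraries in the fit its adjusted p was 0.00714. BIP3 had 8.65, 2.94 and 2.66 CPM in npq4-1 and 1.73, 1.82 and 1.26 CPM in Col-0 (log2 1.55, SE 0.55, edgeR adjusted p = 0.158). ERDJ3B had 55.5, 45.8 and 46.8 CPM in npq4-1 and 40.3, 37.7 and 37.4 CPM in Col-0 (log2 0.36, edgeR adjusted p = 0.116). Of the 10 members, 3 did not overlap between these groups, where 20.4% of all genes did not.

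BIP3 had the widest range of log2 CPM between the libraries of a group in 9 of the 10 groups, and CRT3 had it in 1, the double line with water. Over the 30 libraries it ranged from 1.26 to 12.8 CPM, or from 20 to 231 reads, a ratio of 10.2, whereas CRT1A, CRT1B, CNX1, CNX2, BIP1, BIP2, SDF2 and ERDJ3B ranged by ratios of 1.39 to 1.72. Its highest libraries were bicarbonate replicate 2 of the double line at 12.8 CPM, water replicate 1 and bicarbonate replicate 1 of npq4-1 at 8.65 and 8.23 CPM, and bicarbonate replicate 2 of the triple line at 6.60 CPM. ERDJ3B was also highest of its group in these 4 libraries, at 63.4, 55.5, 49.3 and 54.5 CPM, and so was BIP1, at 259, 195, 219 and 241 CPM. Over all 10 groups the library highest in BIP3 was also the highest in CRT1A in 8, in CRT1B and CNX2 in 7, in CNX1, BIP1, CRT3 and SDF2 in 6, and in BIP2 and ERDJ3B in 5. CRT3 shared its highest library with CRT1B, CNX1, BIP1 and BIP2 in 8 of the 10 groups. The members share each library's depth and scaling, and these counts are a description.

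**Figure D5:**
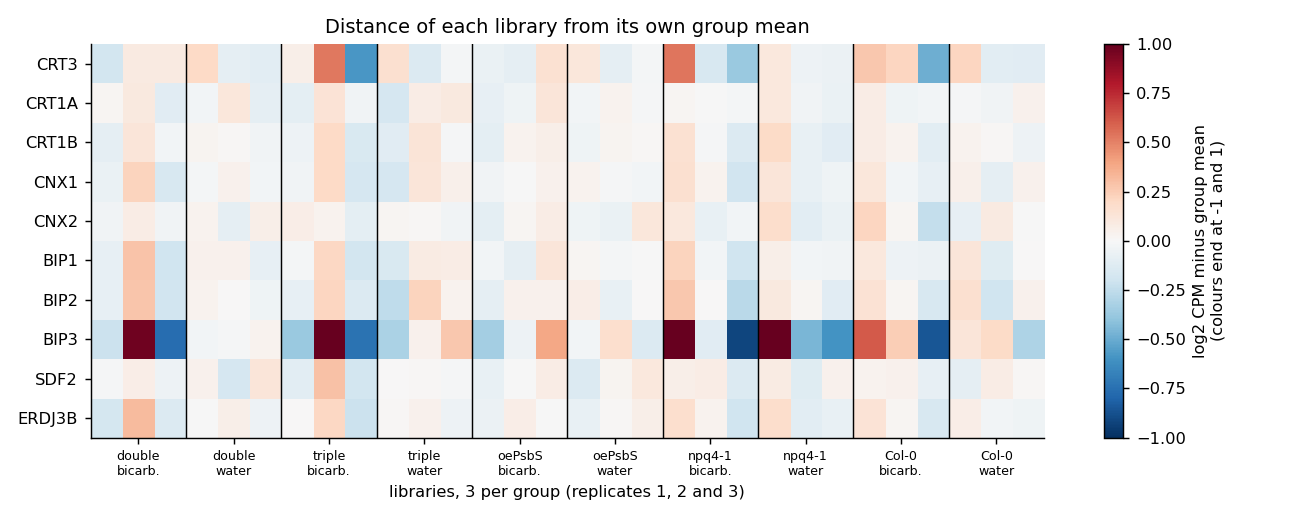
Distance of each library from the mean of its own group on the log2 CPM scale for the 10 genes (rows), with 3 libraries per group as columns and bicarbonate left of water within a genotype; colours end at −1 and 1. BIP3 shows the strongest colours, and in bicarbonate replicate 2 of the double and triple lines all 10 genes are at or above their group mean.

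The genes whose means over the 10 groups were most like those of CRT3, among 18999, were AT3G03880, AT5G51440, AT1G05120, AT4G23680 and AT1G64360, with Pearson correlations of 0.91, 0.91, 0.90, 0.90 and 0.90 over 10 group means of log2 CPM. None of them had a gap like that of CRT3. AT4G23680 ranged from 4.13 to 14.5 CPM in the double line, against 1.08 to 6.61 CPM in the others, and AT3G03880 ranged from 10.6 to 13.0 CPM, against 8.44 to 12.5 CPM. The genes most like BIP2 were BIP1 (0.94), NTRA (0.91), which encodes a thioredoxin reductase, CNX1 (0.91), AtIPCS3 (0.90) and AT4G24370 (0.89). The 10 means share libraries, depth and the step of the double line, so these are descriptions.

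The rest of the ER folding pathway was followed in 7 lists of 62 genes. With water it was close to its level in Col-0 in the double line, with a median log2 fold change of 0.05. With bicarbonate the median was 0.12 against Col-0 and 0.17 against oePsbS. In this last comparison the disulfide isomerases PDIL1-1, PDIL1-2 and PDIL1-3 stood at log2 0.55, 0.77 and 0.55, the degradation genes HRD1B and UBC32 at 0.42 and 0.30, and the regulators BZIP60 and NAC089 at 0.76 and 0.70. BAG7, another gene of these lists, stood lower, at −0.26. By the criterion for a call in edgeR 2 of the 62 genes passed, where 3.16% of all genes did. Against Col-0 with bicarbonate NAC062 stood at 1.06, BZIP60 at 0.62 and HRD1B at 0.31. NAC062 is a membrane-tethered transcription factor that relays ER stress to the nucleus. The 4 leaf markers summed to 52980 to 57000 CPM in the double line with bicarbonate, against 61780 to 63560 CPM in oePsbS and 55830 to 66060 CPM in Col-0 with bicarbonate, and their part in these differences was not tested.

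The regulators of the unfolded protein response were followed in the triple line as well. With bicarbonate 11 of 62 pathway genes were higher and 1 lower in the triple line than in oePsbS on the adjusted p alone, where 5.75% of all genes were higher. NAC062 had 27.7, 52.8 and 61.5 CPM in the triple line, against 16.7, 15.4 and 17.2 CPM in oePsbS (log2 1.53, SE 0.23, edgeR adjusted p = 8.08e-05). BZIP60 had 34.8, 45.0 and 51.1 CPM in the triple line, against 26.6, 21.5 and 25.1 CPM in oePsbS (log2 0.84, SE 0.15, edgeR adjusted p = 0.00086). BZIP28, the second membrane-bound sensor, was higher by log2 0.39 (SE 0.09, edgeR adjusted p = 0.0104). In the double line with bicarbonate NAC062 stood at 21.6, 32.5 and 51.5 CPM and BZIP60 at 32.6, 37.9 and 53.1 CPM, highest in replicate 3, where BIP3 was lowest of the 3 libraries.

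Within the triple line, 2 of the 61 pathway genes that could be fitted rose with bicarbonate, where 1.67% of all genes rose on the adjusted p alone. Counts this small do not set the pathway apart from all genes. NAC062 rose to 27.7, 52.8 and 61.5 CPM with bicarbonate, against 15.01, 13.6 and 14.0 CPM with water (log2 1.75, SE 0.24, edgeR adjusted p = 0.00578). SOBIR1, a receptor-like kinase that works with immune receptors and is folded in the ER, rose to 148, 231 and 179 CPM with bicarbonate, against 93.9, 63.4 and 82.0 CPM with water (log2 1.23, SE 0.18, edgeR adjusted p = 0.00619). In the double line SOBIR1 was the 1 of 62 pathway genes to rise, near the 1.27% of all genes that rose. It had 157, 156 and 183 CPM with bicarbonate, against 104.7, 98.2 and 97.3 CPM with water (log2 0.73, SE 0.08, edgeR adjusted p = 0.00397). EFR, the receptor whose production needs CRT3, was at 9.92, 8.96 and 9.11 CPM in the double line with bicarbonate, against 8.27, 10.4 and 5.25 CPM in Col-0 with bicarbonate, and was singled out here for that link after its values were known.

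In oePsbS 9 of 62 pathway genes fell with bicarbonate on the adjusted p alone in edgeR, where 7.19% of all genes fell. TIN1, an ER gene induced by tunicamycin, fell to 0.650, 0.834 and 1.03 CPM with bicarbonate, against 2.13, 1.46 and 2.01 CPM with water (log2 −1.13, SE 0.33, edgeR adjusted p = 0.0397), at levels of few reads. The others included FLS2, the flagellin receptor (log2 −0.52), HRD3A, of the degradation machinery (−0.46), ERD2A, a retrieval receptor (−0.62), UGGT, which re-glucosylates unfolded glycoproteins for the calnexin cycle (−0.26), and PDIL1-1 (−0.31). The median of the 62 genes was −0.15 in this response, where that of all genes was −0.002, and it was 0.05 in the response of the double line and 0.03 in that of the triple line. The leaf and floral markers named above as passing also changed in this response, and their part was not tested.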

How the data were processed

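Per the methods, rosette RNA was made into strand-specific paired-end libraries and quantified with Salmon on the TAIR10 cDNAs of Ensembl (the version of Salmon is not given in the sources used here). The authors deposited estimated counts and TPM per transcript for 30 libraries of 15346368 to 18326430 reads. Both were summed to 27588 loci, of which 27390 matched a RefSeq gene for names, and counts were rounded. Genes passed a minimum count of 10 and a total of 15. The edgeR 4.0.16 quasi-likelihood test with TMM scaling and Benjamini-Hochberg adjustment (R 4.3.3) was fitted to the 6 libraries of a genotype for its bicarbonate response and to all 30 for other contrasts, and was tested on simulated data. CPM values use TMM library sizes. Alternatives were DESeq2 1.42.0, limma 3.58.1 on log2(TPM + 1), RLE size factors, no filter, length-scaled counts, near-identical copies summed, other libraries in the fit, a replicate block and each library left out. The p-values set a difference between groups against the spread between libraries of the same group. In the fits of all 30 libraries that spread is estimated over all 10 groups together. The members and the lists were chosen with earlier results of these data known. All 10 members are named, with the transgenes, the neighbours of CRT3, up to 4 genes of a list per contrast by smallest adjusted p, and the 5 genes most like CRT3 and BIP2. Promoter motifs were searched in RefSeq TAIR10.1 windows.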

Additional observations from a re-analysis of the deposited data

Results flagged for a closer look

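In 7 cases the bicarbonate response of a pathway or marker gene differed between genotypes by more than 1 on the log2 scale and past an adjusted p of 0.05, by an interaction term in edgeR fitted to all 30 libraries. Those against oePsbS share its 6 libraries. By this criterion 2 of 62 pathway genes passed in the triple line minus oePsbS, near the 3.12% of all genes that did. In the double line minus oePsbS 3 of 62 passed, where 2.13% of all genes did. On the adjusted p alone, 10 of 62 pathway genes passed in the triple line minus oePsbS, 6 in the double line minus oePsbS and 1 in the triple line minus Col-0, where 13.1%, 8.06% and 0.726% of all genes did. The leaf markers RBCS1A and RCA passed in the first 2, at −0.48 and −0.29 in the triple line minus oePsbS and at −0.55 and −0.41 in the double line minus oePsbS, and their part in the cases below was not tested.

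NAC062, the membrane-tethered regulator, differed in 3 of them. Its level was 27.7, 52.8 and 61.5 CPM with bicarbonate against 15.01, 13.6 and 14.0 CPM with water in the triple line, and 21.6, 32.5 and 51.5 CPM with bicarbonate against 17.6, 18.9 and 14.99 CPM with water in the double line. In oePsbS it was 16.7, 15.4 and 17.2 CPM with bicarbonate and 15.3, 14.6 and 20.9 CPM with water. The difference of the log2 responses was 1.79 between the triple line and oePsbS (SE 0.33, edgeR adjusted p = 0.00141), 1.58 between the triple line and Col-0 (SE 0.33, edgeR adjusted p = 0.02) and 1.08 between the double line and oePsbS (SE 0.32, edgeR adjusted p = 0.0395).

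SOBIR1, the receptor-like kinase, rose with bicarbonate in the triple and double lines and fell in oePsbS, to 93.4, 68.3 and 97.7 CPM with bicarbonate, against 140.5, 113 and 121 CPM with water. The difference was 1.75 between the triple line and oePsbS (SE 0.33, edgeR adjusted p = 0.0016) and 1.25 between the double line and oePsbS (SE 0.32, edgeR adjusted p = 0.0198).

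ERD2A, a receptor that returns ER proteins from the Golgi, had 8.40, 8.29 and 7.71 CPM with bicarbonate and 7.07, 5.58 and 6.10 CPM with water in the double line, whereas oePsbS had 5.59, 5.42 and 6.09 CPM with bicarbonate and 9.92, 7.52 and 9.08 CPM with water. The difference was 1.01 (SE 0.22, edgeR adjusted p = 0.00892). SEP2, a floral marker of at most 2.97 CPM in these 2 genotypes, differed by 3.49 between the triple line and oePsbS (SE 1.17, edgeR adjusted p = 0.0482).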

How the results depend on the processing

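The count of members called with the fold changed in 4 comparisons. In the double line against oePsbS with bicarbonate it was 2, and 1 to 2 with a library left out, the lower value without double-line bicarbonate replicate 2. In the bicarbonate response of the double line it was 0, but 1 with DESeq2, 1 with no low-count filter and 0 to 1 with a library left out, BIP3 each time. In the difference of the responses of the double line and oePsbS it was 0, but 1 with only the libraries compared and 0 to 1 with a library left out, the higher value without npq4-1 bicarbonate replicate 1 or triple-line bicarbonate replicate 2. In that of the triple line and oePsbS it was 0 to 1 with a library left out, the higher value without triple-line bicarbonate replicate 3. No direction of a called value reversed under any alternative run. Same-numbered libraries deviated together in 3 of 15 pairs (correlation above 0.1). This compares only water with bicarbonate within a genotype, on deviations from means of 3 libraries. It cannot settle whether the replicate numbers pair the samples. With the replicate block the difference of the CRT3 responses of the triple line and oePsbS was 0.81 (edgeR adjusted p = 0.0481), the 1 printed call the block changed. BIP3 rests on 20 to 231 reads per library, which limits its precision, and the division of reads between BIP1 and BIP2 is an estimate.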
